A study of Mus musculus with 16 samples.

Results

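Chromosome contacts that scored as loops in mouse embryonic stem (ES) cells grown in serum, and in neither of the other untreated cell states of the study, made up 304 of the 5762 pixels in the authors' deposited classified table (5.28%). A pixel is a pair of 4 kb bins, its anchors, whose contact was scored in every library. The 304 were chosen by their deposited scores in the untreated libraries: they are the pixels with an interaction score of 26 or more in both serum libraries and below 26 in both ES 2i libraries and both neural progenitor libraries. They are called serum-specific pixels here as a name for that rule and nothing more.

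Contacts were measured by 5C, which amplifies ligation products between chosen restriction fragments (HindIII here) with forward and reverse primers. ES cells were the V6.5 line, male, of 129SvJae x C57BL/6 background, grown with LIF either in serum or in serum-free 2i medium with the inhibitors CHIR99021 and PD0325901, after expansion on feeder cells and passage onto gelatin. Neural progenitor cells (NPCs) came from whole brains of P1 129SvJae x C57BL/6 mice with a Sox2-eGFP allele, grew as neurospheres and were plated as adherent cells. A further pair of NPC groups received siRNA against YY1 or control siRNA, at a lower plating density, and was measured at the Klf4 and Sox2 loci only. Each 5C group had 2 libraries, and each untreated state had 1 CTCF ChIP-seq library. ES cells and NPCs differ in origin as well as in state, which cannot be told apart here. Expression was not among the measurements used, so cell identity rests on the labels.

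Both media keep ES cells self-renewing. Inhibition of MEK and GSK3 in 2i holds them in a more uniform, ground-like state, whereas cultures in serum and LIF are more mixed and express lineage genes at low levels. CTCF is a zinc-finger protein that, with cohesin, anchors many loops. YY1 is a zinc-finger protein known to bridge promoters and enhancers. The loci are named for Oct4, Nanog, Klf4 and Sox2, which encode pluripotency factors (Sox2 is active in neural progenitors too), for Nestin, an intermediate filament gene of neural progenitors, and for Olig1-Olig2, transcription factors of the oligodendrocyte lineage, with a gene desert as the seventh. Positions below are in mm9. No mm9 gene annotation was used here, so genes at the anchors are not named.

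The score falls as the authors' deposited p-value rises: it equalled 10 times the negative log2 of that p-value to within 0.062. A score of 26 thus corresponds to p = 0.165 in the authors' table, without adjustment for the number of pixels. In the serum libraries the 304 pixels scored from 34.2 to 106 (median 52.1) in replicate 1 and from 33.5 to 106 (median 50.8) in replicate 2. In 2i their medians were 5.81 and 6.60, with highest values of 24.8 and 25.9. In NPCs the medians were 4.94 and 4.81, with highest values of 25.9 and 24.4. The rule fixes this separation, which is therefore a description.

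**Figure D1:**
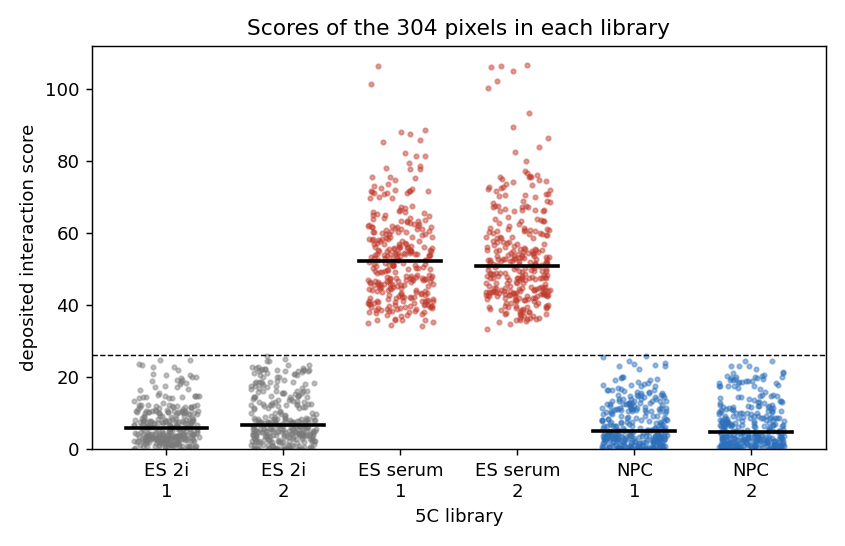
Deposited interaction scores (vertical axis, no unit) of the 304 serum-specific pixels in each of the 6 untreated 5C libraries; points are pixels, bars are medians and the dashed line is the threshold of 26. The serum points lie above the line and the others below it because the pixels were chosen that way; the lowest serum score was 33.5.

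Just inside the rule stood an Oct4 pixel whose serum scores were 58.4 and 60.7 and whose higher 2i score was 25.9. Just outside stood an Olig1-Olig2 pixel with serum scores of 65.0 and 65.3 and a 2i score of 26.1. No member lay near the threshold on its serum side. Over all 191184 pixels scored in the 6 libraries, 6389 (3.34%) met the same thresholds, and the 6085 outside the classified table had a median lower serum score of 30.5. The members are thus the pixels of this kind that the authors kept in that table. All 304 were in the authors' ES-only class of 347. Of the other 43 pixels of that class, 31 had replicate libraries on opposite sides of 26.

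The pixels fell on 6 of the 7 loci, and 131 of them (43.1%) were at the Oct4 locus. The Olig1-Olig2 locus held 75, the Nestin locus 56, Klf4 23, Nanog 14 and Sox2 5. None of the 16 classified gene desert pixels qualified. As a share of the pixels in which both libraries of at least 1 state reached 26 and no state was split, serum-specific pixels were 12.6% at Olig1-Olig2, 10.8% at Nestin, 8.61% at Klf4, 8.47% at Oct4, 6.60% at Nanog and 0.998% at Sox2. By this measure the loci of 2 neural gene regions, Olig1-Olig2 and Nestin, had the highest shares, and the Sox2 locus the lowest. Set against all scored pixels, Oct4 exceeded its share as those 2 loci did. Oct4 held 43.1% of the serum-specific pixels and 33.7% of all scored pixels, Olig1-Olig2 24.7% and 19.5%, and Nestin 18.4% and 13.8%. Klf4 held 7.57% and 10.7%, Nanog 4.61% and 6.42%, and Sox2 1.64% and 15.4%. At Sox2, 98 pixels were specific to 2i and 197 to NPCs.

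Neighbouring pixels are not independent, since they can share an anchor bin, and counts summed around them can come from the same primer pairs. Pixels that touched, corners included, formed 57 clusters with a median of 4 pixels. The largest cluster held 26, and 8 clusters of 10 or more pixels held 115 of the 304. The clusters numbered 22 at Oct4, 12 at Nestin, 11 at Olig1-Olig2, 6 at Klf4, 5 at Nanog and 1 at Sox2. Of the 57, 18 touched a pixel that scored as a loop in another state or in only 1 library of a state, and 13 touched a pixel of the latter kind. The other 39 stood apart from such pixels.

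Counts were then read directly from the primer pairs, summed over 16 kb around both anchors and given per 1000000 counts of the locus in that library (locus CPM). A primer pair lay within that window for 290 pixels, with a median of 6 pairs, and for 14 pixels none did. The median over the 290 pixels was 135 and 160 in 2i, 262 and 269 in serum, and 82.2 and 88.3 in NPCs. The serum libraries thus had the highest medians and the NPC libraries the lowest. Both serum libraries were above the other 4 at 214 of the 290 pixels, a count not made over all scored pixels. They were above both 2i libraries at 229. Some pixels went the other way. An Oct4 pixel at 644 kb, singled out after its values were seen, had 7.18 and 10.6 in serum and 31.4 and 37.2 in 2i. The serum libraries were also the deepest, with 26533530 and 25791222 total counts, against 11784821 to 14887963 in the other 4, and the part of depth in the choice of pixels was not tested.

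Summed on a fixed grid of 16 kb windows, the pixels fell in 116 window pairs, of which 107 held counts, and all 107 passed the filter on low counts. In 58 of the 107, both serum libraries were above the other 4 in locus CPM. Over all 15601 window pairs tested this share was 27.9%. The rule used this contrast, so nothing is read from the difference. After removal of each library's trend with distance, the median log2 fold change at the 107 window pairs was 0.61 for serum against 2i, beside 0.05 over all window pairs. Against NPCs it was 0.66, beside 0.03. These comparisons share the serum libraries. Between NPCs and 2i the median was 0.02, beside 0.04 over all window pairs, and its sign changed with the processing.

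The leading cluster at the Oct4 locus was the largest of all, with 26 pixels. It joined chr17:36282392-36302391 to chr17:36346392-36378391, and its leading pixel, the one with the widest gap between serum and the other states, spanned 76 kb. That pixel had 1391 and 1301 locus CPM in serum, 846 and 703 in 2i, and 352 and 476 in NPCs. The 3 states did not overlap, in the order serum, 2i, NPC. A single primer pair supplied 79.6% of those counts. A second Oct4 cluster, of 11 pixels, joined chr17:36282392-36294391, within the first of those stretches, to chr17:35742392-35762391, 528 kb away at its leading pixel. Here locus CPM values were 845 and 736 in serum, 178 and 295 in 2i, and 112 and 92.3 in NPCs. Serum was thus well above both other states, and its scores of 101 and 100 were among the highest of the set.

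These stretches recurred. The bin chr17:36282392-36286391 was the most used anchor, in 18 pixels of 5 clusters, and the adjoining bin chr17:36286392-36290391 was in 13. The 5 adjoining bins of chr17:36282392-36302391 took part in 52 of the 131 Oct4 pixels, and chr17:36346392-36378391 in 53. A further cluster of 11 pixels, singled out after its values were seen, joined chr17:35742392-35758391 to chr17:36354392-36378391, so that all 3 stretches were paired with one another. For that last pairing, at 604 kb, locus CPM lay close together in serum (81.7 and 75.2) and 2i (71.3 and 66.1), and NPCs had 56.8 and 31.9. Its scores were 53.5 and 61.1 in serum against 3.70 and 4.41 in 2i. The score sets the observed contact against a local expectation, so score and count need not move alike.

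At Olig1-Olig2 the leading cluster of 25 pixels joined chr16:91170613-91210612 to chr16:91414613-91438612, with its leading pixel at 224 kb. Locus CPM values were 405 and 496 in serum, 164 and 215 in 2i, and 123 and 124 in NPCs. The serum libraries did not overlap the others. On the window grid this contact was higher in serum by a log2 fold change of 1.05 (SE 0.20) against 2i and 0.97 (SE 0.20) against NPCs. In that order the values were 0.50 and 0.81 in 32 kb windows, and 1.18 and 0.99 with plain TMM scaling. The stretch chr16:91170613-91210612 was in 43 of the 75 Olig1-Olig2 pixels and chr16:91414613-91438612 in 35. Its most used bin, chr16:91422613-91426612, was in 13 pixels of 3 clusters and in no pixel of another looping group.

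The second Olig1-Olig2 cluster, of 10 pixels, joined chr16:90690613-90702612 to chr16:91526613-91546612 over 836 kb at its leading pixel. No primer pair lay within 16 kb windows centred on that pixel's anchors, so no counts are given beside its serum scores of 59.8 and 52.7. On the fixed grid, whose windows lie differently, the log2 fold change was 0.48 (SE 0.41) against 2i and 1.11 (SE 0.43) against NPCs. The value against 2i rested on single libraries, being 0.0056 without 2i replicate 1 and 1.29 without 2i replicate 2.

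At the Nestin locus the leading cluster of 11 pixels joined chr3:87629088-87645087 to chr3:88029088-88049087, 396 kb apart at its leading pixel. Locus CPM values were 353 and 414 in serum, 159 and 154 in 2i, and 124 and 87.9 in NPCs, so that serum stood above both. The log2 fold changes were 1.32 (SE 0.29) against 2i and 1.54 (SE 0.30) against NPCs, and 0.71 and 1.26 with plain TMM scaling. Of the 11 leading pixels, both at Oct4 and the second at Klf4 held no primer pair in their window pair of the grid and have no fitted value. The second Nestin cluster, of 10 pixels at 160 kb, joined chr3:87901088-87921087 to chr3:88061088-88069087. It had 530 and 571 locus CPM in serum, 383 and 373 in 2i and 320 and 321 in NPCs, a smaller separation in the same order. Its log2 fold changes were 0.54 (SE 0.19) against 2i and 0.30 (SE 0.19) against NPCs, and 0.20 and 0.14 with plain TMM scaling.

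The Klf4 locus had a cluster of 8 pixels joining chr4:55491979-55511978 to chr4:55639979-55655978, 152 kb apart at its leading pixel. Locus CPM values were 619 and 763 in serum, 186 and 285 in 2i, and 135 and 195 in NPCs. The log2 fold changes were 0.77 (SE 0.19) against 2i and 1.00 (SE 0.19) against NPCs. In that order they were 0.26 and 0.90 in 32 kb windows, and 1.01 and 1.43 with plain TMM scaling. A second cluster of 7 pixels lay within chr4:55327979-55363978 and spanned only 20 to 24 kb. Its leading pixel had 549 and 672 locus CPM in serum, 311 and 258 in 2i, and 291 and 335 in NPCs, all from 1 primer pair.

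The 5 Sox2 pixels formed 1 cluster, from chr3:34236880-34248879 to chr3:34772880-34780879, 528 kb apart at the leading pixel. That pixel had 135 and 131 locus CPM in serum, 51.8 and 80.2 in 2i, and 35.1 and 41.8 in NPCs. The log2 fold change was 0.75 (SE 0.36) against 2i and 1.20 (SE 0.37) against NPCs. Against 2i it was 0.49 without serum replicate 1, 0.13 in 32 kb windows and 1.18 with plain TMM scaling. Against NPCs it was 0.29 in 32 kb windows and 1.40 with plain TMM scaling.

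At Nanog the leading cluster of 6 pixels joined chr6:122205360-122213359 to chr6:122405360-122417359. Its leading pixel, at 200 kb, had 230 and 205 locus CPM in serum and 176 and 194 in 2i, from a single primer pair. NPCs had 18.0 and 90.7. On the grid the log2 fold change was 0.92 (SE 0.44) against 2i and 0.84 (SE 0.45) against NPCs. Against 2i it was 0.56 without 2i replicate 1, 1.42 without 2i replicate 2 and -0.46 in 32 kb windows. Against NPCs it was 0.25 without NPC replicate 1 and 1.97 without NPC replicate 2. The second Nanog cluster, of 3 pixels at 412 kb, joined chr6:122313360-122321359 to chr6:122729360-122737359. It had 394 and 477 locus CPM in serum, 238 and 186 in 2i, and 98.0 and 153 in NPCs. Its log2 fold changes were 0.35 (SE 0.32) against 2i and 0.45 (SE 0.32) against NPCs. Against 2i it was 0.063 with plain TMM scaling and 0.067 without serum replicate 2. Another Nanog cluster of 3 pixels, at 188 kb, was singled out after its values were seen. On the grid its window pair was lower in serum, by -2.20 (SE 0.30) against 2i and -1.81 (SE 0.30) against NPCs. Around its leading pixel, locus CPM was 454 and 472 in serum and 424 and 364 in 2i.

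**Figure D2:**
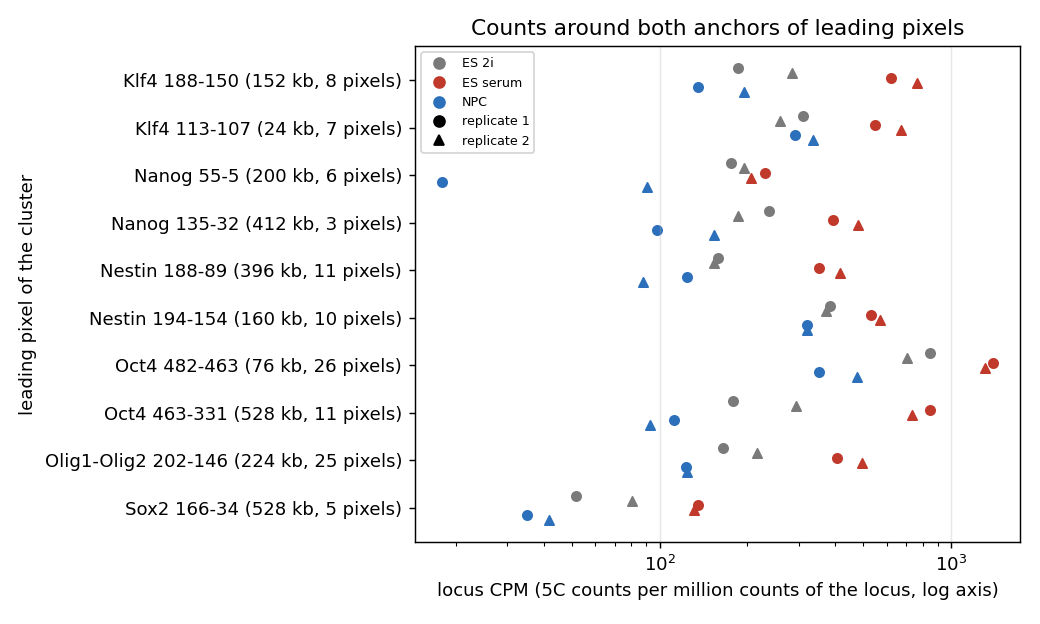
Locus CPM of 5C counts (log axis) within 16 kb around both anchors, for the leading pixel of each of the largest clusters per locus; circles and triangles are replicates 1 and 2, and the Olig1-Olig2 pixel with no primer pair in its windows is not drawn. Serum exceeds 2i and NPC in both libraries at each pixel drawn, by little at the Nanog pixel of 200 kb (230 and 205 against 176 and 194 in 2i). Among all serum-specific pixels with a primer pair this held at 214 of 290. The pixels were chosen by scores of these same libraries, and each leading pixel by its widest score gap, so this is a description. Over all 15601 window pairs tested on the fixed grid, a different unit, the same order held at 27.9%.

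Serum-specific pixels spanned long distances. Their median was 398 kb, from 20 to 1304 kb, and 132 of 304 (43.4%) spanned 500 kb or more. Among 2i-specific pixels the median was 300 kb with 18.3% at 500 kb or more, and among NPC-specific pixels 240 kb with 13.3%. Among pixels that reached 26 in all 3 states it was 88 kb with 13.8%. The 52 pixels of serum and NPC had 270 kb with 30.8%, and pixels of 2i and serum 104 kb with 12.4%. Over all scored pixels the median was 300 kb and 25.4% spanned 500 kb or more. Counted once per cluster, by the median of its pixels, 25 of 57 clusters (43.9%) spanned 500 kb or more.

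The span differed between loci. The median was 600 kb at Oct4, where 2i-specific pixels had 348 kb and NPC-specific pixels 252 kb. At Sox2 it was 532 kb over the 1 cluster, at Nestin 400 kb against 296 kb for 2i-specific and 272 kb for NPC-specific pixels. At Nanog it was 204 kb against 44 and 132 kb. The order differed at Olig1-Olig2, where serum-specific pixels had 248 kb, 2i-specific pixels 422 kb and NPC-specific pixels 158 kb, and at Klf4, with 148, 128 and 206 kb. Each locus has its own length, and pixels of a cluster share their span, so these medians are given without a test.

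**Figure D3:**
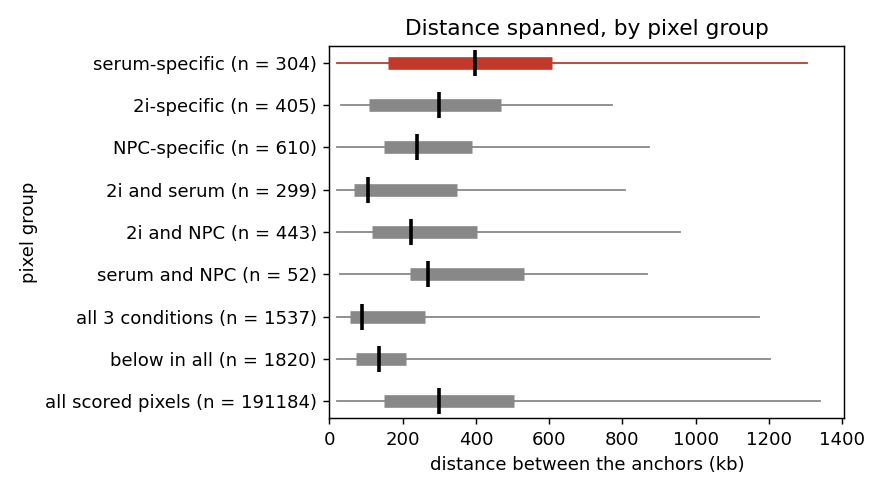
Distance between the anchors (kb) for each pixel group; thin lines run from the lowest to the highest value, thick lines cover the middle of the distribution from the lower to the upper quartile, and ticks are medians. The serum-specific group has a median of 398 kb, against 300 kb for 2i-specific pixels, 240 kb for NPC-specific pixels and 88 kb for pixels that reached 26 in all 3 states.

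CTCF peaks, which the rule did not use, were found at 1 or both anchors of 103 of the 304 pixels in the list from serum cells. Both anchors held a peak in 22 pixels (7.24%), 1 anchor in 81 (26.6%), and neither in 201 (66.1%). The share with any peak was therefore 33.9%. It was 43.7% among 2i-specific pixels, 46.2% among NPC-specific pixels, 57.2% among pixels of 2i and serum and 55.9% among pixels of all 3 states. Pixels of 2i and NPC had 48.5%, and the 52 pixels of serum and NPC were nearest, with 38.5%. Among classified pixels below 26 in every library it was 33.8%, nearly the same as at serum-specific pixels. With anchors widened by 1 bin on each side, serum-specific pixels had 56.6% and the pixels below 26 had 65.5%, while the other looping groups had 75.8% to 86.7%. With only peaks of −log10 q of 20 or more, serum-specific pixels had 28.3% and pixels of 2i and serum 32.1%, a much narrower gap, while pixels of all 3 states had 49.7%.

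**Figure D4:**
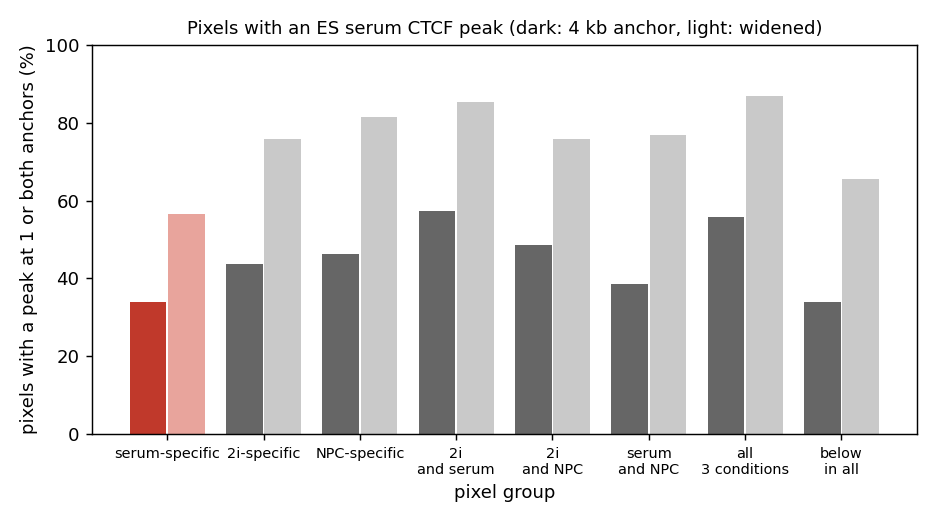
Percentage of pixels of each group with a CTCF peak of the ES serum list at 1 or both anchors, for the 4 kb anchor bin (dark) and for anchors widened by 1 bin on each side (light). Serum-specific pixels, in red, stand at 33.9% and 56.6%, against 55.9% and 86.7% for pixels that reached 26 in all 3 states.

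The lower share with the serum list was not seen at every locus. At Oct4, 45.0% of the 131 serum-specific pixels had a serum CTCF peak at an anchor, against 89.5% of 2i-specific pixels and 63.7% of those of all 3 states. At Olig1-Olig2 the share was 10.7% of 75, against 15.4% and 39.2%. At Klf4 it was 1 of 23 pixels and at Sox2 0 of 5. At Nestin it was 50.0% of 56 pixels, against 29.4% of 2i-specific pixels and 50.9% of those of all 3 states, and at Nanog 50.0% of 14, against 66.7% and 51.7%. By span, the share was 17.3% of the 52 serum-specific pixels under 100 kb, where pixels of all 3 states had 57.5%, 2i-specific pixels 54.3%, NPC-specific pixels 27.2% and pixels below 26 in every library 28.8%. From 500 kb upwards it was 42.4%, against 57.1% for all 3 states and 52.7% for 2i-specific pixels. In that class NPC-specific pixels had 37.0%, pixels of 2i and serum 40.5% and pixels below 26 in every library 39.7%, so the serum-specific share was not the lowest there. With 1 ChIP-seq library per state and pixels that share anchors, these shares carry no test.

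Counted by anchor, the 304 pixels used 216 different bins, of which 50 (23.1%) held a serum CTCF peak, beside 19.4% of all 1807 bins of the loci. The share was 25.3% of the bins of 2i-specific pixels and 24.1% of those of NPC-specific pixels. The gaps to these 2 groups were thus narrower than by pixel. Bins of serum and NPC pixels had 19.3%, those of 2i and serum 31.7% and those of all 3 states 27.6%. Of the 216, 162 held no peak in any list, 24 held one in all 3 lists, 21 in both ES lists, 4 in the 2i list alone and 5 in the serum list alone. As shares these were 75.0%, 11.1%, 9.72%, 1.85% and 2.31%, beside 77.8%, 10.2%, 7.75%, 2.49% and 1.44% of all 1807 bins. The NPC list was shorter, with 28860 peaks against 50185 in serum and 56138 in 2i, and the part of list length in these counts was not tested. Of the 57 clusters, 34 had a serum peak at an anchor of some pixel, and 23 clusters with 114 pixels had none.

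Several leading clusters differed in this respect. The Nestin cluster at 396 kb had CTCF on both sides, with serum peaks at chr3:87642554-87642962 on one side (35.0-fold over local background, the authors' value) and chr3:88039047-88039449 on the other (34.7-fold). The first was also in the 2i and NPC lists and the second in the 2i list. The right stretch held 4 NPC peaks as well, among them chr3:88046517-88046795 (19.4-fold) and chr3:88048069-88048345 (33.6-fold). The Nanog cluster at 200 kb likewise had peaks on both sides, at chr6:122208883-122209171 (20.3-fold) and chr6:122413133-122413839 (19.4-fold), with no NPC peak on the latter side. The Klf4 cluster at 152 kb had 1 strong peak, chr4:55493256-55493656 (35.2-fold), within its left stretch, present in all 3 lists. The Oct4 cluster at 76 kb had peaks only on its right side, at chr17:36363934-36364234 (27.6-fold) and chr17:36368348-36368711 (18.6-fold), the first absent from the NPC list.

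The leading Olig1-Olig2 cluster, the second Nestin and Klf4 clusters and the Sox2 cluster had no CTCF peak of any list in either stretch. The 3 most used anchors, 2 adjoining Oct4 bins and the Olig1-Olig2 bin named above, had none either.

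The anchors were also compared with those of the other looping groups. Of the 216 bins, 144 (66.7%) were also an anchor of another looping group, compared with 73.8% of the 221 bins of 2i-specific pixels and 65.5% of the 278 bins of NPC-specific pixels. The overlap was widest with pixels of all 3 states, at 107 bins (49.5%). That was also the looping group with most bins, 713 of all 1807 bins of the loci. With 2i-specific pixels, which used 221 of the 1807, 18 bins were shared (8.33% of these 216 and 8.14% of the 2i-specific ones). With NPC-specific pixels, which used 278, 21 were shared (9.72%, and 7.55% of the NPC-specific ones). Shares over all bins were not worked out, and the part of group size in these overlaps was not tested, so nothing is read from them. The most used Oct4 anchor was in 10 pixels of all 3 states and in none of the 2i-specific or NPC-specific ones. Of the 216 bins, 74 were in 1 serum-specific pixel, 28 in 5 or more, and 55 in at least 2 clusters.

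The siRNA libraries, which the rule did not use, covered the 28 pixels at Klf4 and Sox2. These NPC libraries held 5792078 and 6251316 counts for control siRNA and 4419309 and 12993781 for YY1 siRNA, and were made by in situ 3C. Scores had medians of 11.4 and 13.8 with control siRNA and 7.10 and 7.96 with YY1 siRNA. Over all 54368 scored pixels the medians were 10.3 and 10.2 with control siRNA and 10.3 and 10.3 with YY1 siRNA. By median, the 28 pixels, 23 of them at Klf4, thus scored near the general level with control siRNA and below it with YY1 siRNA. The 5 Sox2 pixels alone had medians of 23.5 and 11.9 with control siRNA and 8.83 and 20.4 with YY1 siRNA. At Sox2, control siRNA replicate 1 and YY1 siRNA replicate 2 were thus well above the general level, so the pooled description does not hold there. Both control libraries reached 26 at 1 of the 28 (3.57%, beside 6.51% of all pixels) and both YY1 libraries at 2 (7.14%, beside 5.39%). NPC-specific pixels at these loci had medians of 24.2 and 23.4 with control siRNA and 14.9 and 19.7 with YY1 siRNA.

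The pixel that reached 26 in both control libraries was the Klf4 pixel of 308 kb, with 27.0 and 47.2, against 6.99 and 17.7 with YY1 siRNA. The control and YY1 libraries did not overlap in score at it, and it was singled out after its values were seen. In locus CPM they overlapped, with 269 and 403 for control siRNA and 185 and 288 for YY1 siRNA. The pixels that reached 26 in both YY1 libraries were both in the Klf4 cluster of 20 to 24 kb. One scored 30.6 and 29.5 with YY1 siRNA and 22.2 and 29.9 with control siRNA. In the 5 Sox2 pixels the leading pixel scored 37.7 and 25.7 with control siRNA and 2.96 and 4.96 with YY1 siRNA, whereas its diagonal neighbour scored 12.02 and 11.87 with control siRNA and 19.91 and 31.98 with YY1 siRNA. Pixels of a single cluster thus differed in direction of score. In locus CPM the leading Sox2 pixel overlapped, with 117 and 94.2 for control siRNA and 89.6 and 108 for YY1 siRNA. The neighbour had 127 and 148 with control siRNA and 312 and 331 with YY1 siRNA.

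In counts, 10 of the 11 window pairs of these pixels held primer pairs, and all 10 passed the filter. The median log2 fold change for YY1 siRNA against control siRNA was -0.10, beside 0.06 over all 3741 window pairs, and 4 of the 10 were above 0. At an adjusted p below 0.05 in edgeR's quasi-likelihood test 0 of the 10 were called, and 0 of all window pairs (0%). At an unadjusted p below 0.05 there were 0 of the 10 and 373 overall. DESeq2 called 17 rises and 35 falls over all window pairs (1.39%) and none among the 10. The Klf4 window pair of the 308 kb pixel had the lowest p-value, with a log2 fold change of -0.90 (SE 0.43) and an edgeR adjusted p = 0.51. The largest rise was 0.32 (SE 0.34) at the Klf4 window pair of the 152 kb cluster.

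**Figure D5:**
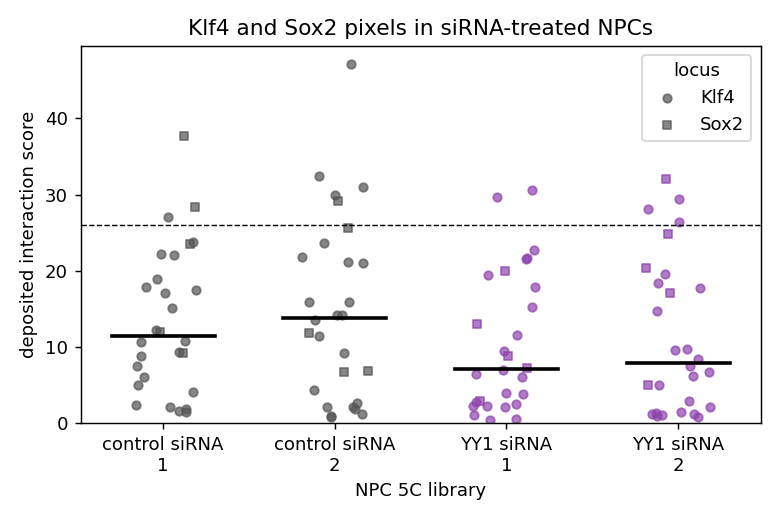
Deposited interaction scores (no unit) of the 23 Klf4 (circles) and 5 Sox2 (squares) serum-specific pixels in the NPC libraries with control or YY1 siRNA; bars are medians over the 28 pixels and the dashed line is 26. Most points lie below the line in all 4 libraries, with medians of 11.4, 13.8, 7.10 and 7.96.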

How the data were processed

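The members and lists were chosen with earlier results of these data known. Samples were grouped by their titles. For control siRNA the growth text conflicts with the title, which was used. The authors' deposited 5C tables give raw counts per primer pair, and other deposited tables give per pixel interaction scores, observed and expected values (a log scale of unstated base, treated as a score) and p-values. Tools named in the submitters' processing notes are Bowtie and MACS2, with mm9 as the build and no versions. CTCF lists deposited by the authors hold a fold enrichment and the −log10 q per peak, 1 library each, and inputs were not analysed here. Peaks and anchors were matched at an overlap of any length. A further 15 per-sample columns were not used.

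Reads joining a forward to a reverse primer of 1 locus were summed over 16 kb windows and tested with edgeR 4.0.16 (quasi-likelihood, filterByExpr, TMM, a loess distance trend per library and locus as offset) in R 4.3.3, over all window pairs with Benjamini-Hochberg adjustment. DESeq2 1.42.0 was an alternative. Python 3.11.15 was used. The fits were tested on simulated data. Separate cultures are not stated in the labels: p-values then measure only the spread between libraries, which may be technical. The 5C reads carry no molecular identifiers. The chi-square statistic divided by its degrees of freedom was 20.7 to 97.8 between libraries of a group, and none was counted as a duplicate.

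The clusters described are, per locus, the 2 with most pixels (ties by the larger lower serum score), each with its leading pixel, together with the 3 most used anchors. For siRNA, window pairs past the threshold were to be named.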

Additional observations from a re-analysis of the deposited data

How the results depend on the processing

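The number of serum-specific pixels was 294 at a threshold of 24 and 318 at 28, and 304 to 316 with 1 library left out. Their median span was 398 and 400 kb at those thresholds. The share with a serum CTCF peak was 34.4% and 33.3% at those thresholds and 32.9% by peak summit, 28.3% with peaks of −log10 q of 20 or more (2i-specific pixels 35.8%, NPC-specific 42.3%, 2i and serum 32.1%, below 26 in every library 27.5%), and 56.6% with widened anchors. The median log2 fold change of serum against 2i was 0.41 with plain TMM scaling, 0.43 with DESeq2, 0.76 in 8 kb windows, 0.29 in 32 kb windows, and 0.60 to 0.67 with 1 library left out. Against NPCs it was 0.54, 0.52, 0.90 and 0.53 in that order, and 0.66 to 0.73 with 1 library left out. For NPCs against 2i it reversed to -0.16 with plain TMM scaling, -0.13 with DESeq2, -0.20 in 8 kb windows and -0.094 in 32 kb windows, and ran from -0.063 to 0.013 with 1 library left out, falling below 0 without either NPC library. The cause was not tested.

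The siRNA median was -0.31 without YY1 siRNA replicate 1, -0.12 without YY1 siRNA replicate 2 and -0.0080 without control siRNA replicate 1. With both libraries of each group kept, no window pair of these pixels was called in any fit. Over all window pairs at most 1.39% were called (DESeq2), so nothing is read from the absence of calls at these few. The mean score difference, YY1 minus control, was -3.25 per pixel and -7.05 per cluster, and -4.02 to -2.49 with 1 library left out, an alternative added after seeing the data. With a replicate block, the medians were 0.61 and 0.67 for serum against 2i and NPCs, -0.029 for NPCs against 2i and -0.16 for siRNA, with 4 rises and 10 falls called over all siRNA window pairs. Replicate differences correlated between groups by 0.02 to 0.09, so the numbers do not pair the libraries. The Nanog contact at 200 kb reversed against 2i, to -0.46, in 32 kb windows.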

Other observations

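The highest score in serum replicate 2, 106, belonged to an Oct4 pixel at 1300 kb (chr17:34706392-34718391 to chr17:36006392-36018391 for its cluster of 5) with no primer pair within 16 kb windows on its anchors. It was singled out after its values were seen. Its scores were 54.0 in serum replicate 1, 0.928 and 0.058 in 2i, and 12.6 and 2.43 in NPCs.

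An Olig1-Olig2 cluster of 7 pixels at 540 kb, likewise singled out, scored 54.2 and 60.0 in serum and 12.4 and 2.07 in 2i. Its locus CPM values were 156 and 137 in serum and 160 and 138 in 2i, and 58.0 and 52.3 in NPCs.

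At Olig1-Olig2, chr16:91098613-91106612 joined chr16:91414613-91430612 in 5 pixels (324 kb), with 610 and 575 locus CPM in serum, 254 and 301 in 2i, and 159 and 161 in NPCs. The bin chr16:91098613-91102612 also joined chr16:91174613-91186612 in 3 pixels (76 kb), with 733 and 802 in serum, 408 and 515 in 2i, and 321 and 367 in NPCs.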
